A study of Mus musculus with 9 samples.

Results

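The 10 genes described here encode core and naive pluripotency transcription factors other than the Kruppel-like factors: Pou5f1, Sox2, Nanog, Esrrb, Tfcp2l1, Tbx3, Zfp42, Prdm14, Nr0b1 and Nr5a2. They were chosen by gene name from the 38940 genes of the deposited table, and each name matched 1 gene. The choice of these factors, and of the gene lists used below, was made with earlier results of these data known. Their RNA was measured by poly(A) RNA-seq in mouse embryonic stem cells in 3 groups of 3 libraries. Control cells carried floxed (f/f) alleles of Yap and Taz, Taz KO cells were Yap f/f with Taz deleted, and double KO cells are described as deleted for both. The genotype field of the double KO libraries repeats the genotype of Taz KO, so the groups follow the titles and descriptions. Cre-ERT2 was delivered by a piggyBac transposon under a CAG promoter, recombination used 4-OHT at 500 nM, and the sources used here do not say whether control cells received either, nor how many clones were used. All groups were cultured on fibronectin with Lif at 4 ng/ml and 2 inhibitors, PD0325901 at 0.4 µM (MEK) and CHIR99021 at 3 µM (GSK3), the condition called 2i/Lif.

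Pluripotent cells hold their state through a network of transcription factors that bind their own genes and those of the other factors. OCT4 (from Pou5f1) and SOX2 form a pair on DNA and are needed for pluripotency as such, whereas ESRRB, TFCP2L1, TBX3, KLF factors and PRDM14 support the naive state of the early epiblast, which 2i/Lif maintains. YAP and TAZ are co-activators of the Hippo pathway that act through the TEAD DNA-binding proteins when the pathway is off.

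Values are FPKM, the authors' fragments per kilobase scaled for depth, and a group is given as its mean ± SD over 3 libraries (n = 3). The 9 libraries held 19.1 to 24.0 M reads, recovered from the steps in the FPKM values. Yap1 had 4.25 ± 0.334 FPKM in double KO, against 18.4 ± 0.573 in control and 18.3 ± 0.346 in Taz KO. Wwtr1, which encodes TAZ, had 12.1 ± 0.847 FPKM in control cells, 10.8 ± 1.58 in Taz KO cells and 13.9 ± 0.772 in double KO cells, so these values do not check its deletion, whose exons the labels do not name. The libraries numbered 2 stood apart: the 6 pairs within groups that included one gave a chi-square of 12.9 to 36.4 per gene, and the 3 pairs without gave 4.71 to 8.20. Against control, the tested genes of chromosome 8 had a median log2 fold change of 0.35 in Taz KO and 0.30 in double KO, and those of chromosome 6 had 0.21 and 0.19. Zfp42 lies on chromosome 8 and Nanog on chromosome 6. Embryonic stem cell markers outside the 10 factors were present in every library, with Dppa5a at 1031 to 3441, Tdgf1 at 241 to 465 and Sall4 at 34.9 to 44.2 FPKM.

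All 10 factors were expressed in all 9 libraries, over a wide range of levels. FPKM is per length, so the order between genes depends on the length used for each. The lengths implied by the FPKM values differed from the GENCODE exon lengths most for 3 factors. They were 2475 against 2057 bases for Sox2, 5405 against 6624 for Tbx3 and 3864 against 5899 for Nr5a2. The order under other lengths, such as that of Nanog and Sox2, was not tested. In control the order was Pou5f1 (455 ± 30.9 FPKM), Nanog (264 ± 3.63), Sox2 (226 ± 14.2), Tfcp2l1 (144 ± 23.4), Esrrb (130 ± 11.2), Zfp42 (72.5 ± 13.3), Tbx3 (45.8 ± 6.26), Nr0b1 (41.0 ± 5.28), Nr5a2 (25.9 ± 1.19) and Prdm14 (14.8 ± 1.65). Neighbours in this order did not overlap over the 3 control libraries, except Tfcp2l1 with Esrrb and Tbx3 with Nr0b1. The first 7 places were the same in Taz KO and in double KO, although Zfp42 overlapped Esrrb in double KO. In double KO the last 3 places went to Nr5a2, Nr0b1 and Prdm14, and Nr0b1 overlapped both of its neighbours there. Among the 11674 genes with a mean of at least 1 FPKM, which are the genes tested below, Pou5f1 ranked 83rd to 101st by level over the 9 libraries and Prdm14 3386th to 4519th. All 10 factors passed this filter, and each passed it in every group. The fewest reads behind a value were 649 for Nr0b1 and 748 for Prdm14, a counting error of 3.93% and 3.66%.

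**Figure D1:**
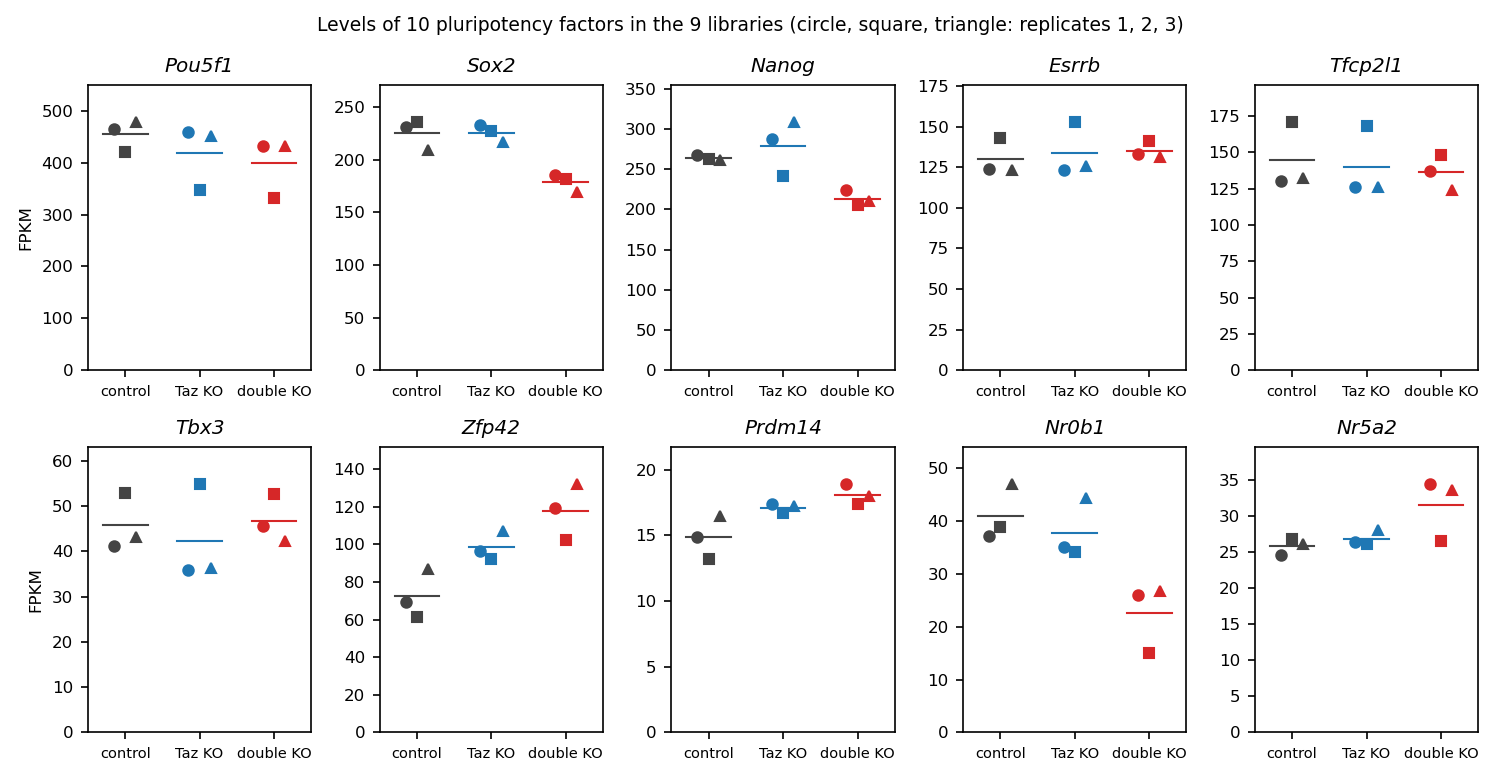
FPKM (y axis, from 0) of each factor in the 3 control, 3 Taz KO and 3 double KO libraries, with replicate numbers 1, 2 and 3 as circle, square and triangle and the group mean as a line. Sox2, Nanog and Nr0b1 lie lower in all 3 double KO libraries than in all control libraries, Zfp42 and Prdm14 lie higher, and number 2 (square) is the highest in every group for Esrrb, Tfcp2l1 and Tbx3.

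The starts of 3 of these genes are shown because the factors are known to act on each other's promoters. RefSeq windows (GRCm38.p6) were found for 8 of the 10, and Tbx3 and Prdm14 had no entry. Each sequence below is the 250 bases before the RefSeq start site, 5′ to 3′ on the gene's own strand. In Nanog (chr6:122707239-122707488, plus strand), capitals mark a composite site on which OCT4 and SOX2 bind side by side. In Pou5f1 (chr17:35505782-35506031, plus strand), capitals mark TCAAGG on either strand, the first part of TCAAGGTCA, the site read by ESRRB and NR5A2. In Zfp42 (chr8:43307010-43307259, minus strand), capitals mark first an octamer, the site of OCT4, and then a TEAD core.
Nanog: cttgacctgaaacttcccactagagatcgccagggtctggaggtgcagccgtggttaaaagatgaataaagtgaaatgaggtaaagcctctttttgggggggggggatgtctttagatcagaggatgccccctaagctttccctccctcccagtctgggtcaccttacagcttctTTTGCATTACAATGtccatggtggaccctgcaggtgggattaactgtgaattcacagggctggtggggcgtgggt
Pou5f1: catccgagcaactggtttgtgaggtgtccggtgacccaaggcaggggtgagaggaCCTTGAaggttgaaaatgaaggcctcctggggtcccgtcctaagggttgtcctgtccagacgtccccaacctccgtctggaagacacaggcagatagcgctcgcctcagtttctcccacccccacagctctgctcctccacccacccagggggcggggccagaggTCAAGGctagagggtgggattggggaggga
Zfp42: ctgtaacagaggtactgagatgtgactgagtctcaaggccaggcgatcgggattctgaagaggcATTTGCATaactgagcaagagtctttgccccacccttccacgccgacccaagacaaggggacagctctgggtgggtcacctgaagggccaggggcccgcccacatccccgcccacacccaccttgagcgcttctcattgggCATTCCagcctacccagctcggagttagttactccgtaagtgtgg

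Motifs were searched as exact letters on both strands. The composite, CATTGT and then ATGCAAA with any 1 base (N) between them, lay 75 to 62 bases before the start of Nanog. The only other of 32851 promoter windows of 250 bases with it was Nanog's second, overlapping window. The letters searched lack the final T of the octamer ATGCAAAT, and other forms of the composite were not searched. Its rarity therefore depends on the letters chosen. The octamer ATGCAAAT was found in Zfp42 (186 to 179 bases before the start) and in none of the other 7 windows of the factors, and 1.6% of all windows hold it. TCAAGG was found in Pou5f1 and Zfp42, at 2 places each, and in 12.5% of all windows; it is part of the longer site TCAAGGTCA, which none of the 8 held. The TEAD core GGAATG was found 45 to 40 bases before the start of Zfp42 and in none of the other 7, and 12.6% of all windows hold it. These are matches of letters in 1 window and do not show binding.

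In the double KO libraries the factors moved in both directions. Against control, Sox2, Nanog and Nr0b1 fell and Zfp42 and Prdm14 rose in double KO, while Pou5f1, Esrrb, Tfcp2l1, Tbx3 and Nr5a2 did not pass the test. These are 5 of 10 factors, beside 25.3% of all tested genes. The 2 rises stand beside 12.4% called higher and the 3 falls beside 12.9% called lower. The median log2 fold change of the 10 was -0.02, and that of all tested genes was -0.02 as well. The groups did not overlap for the same 5 factors, beside 45.6% of all tested genes (21.7% higher in double KO and 23.8% lower). Calls are an adjusted p under 0.05 in limma on log2(FPKM + 0.5), Benjamini-Hochberg adjusted over the 11674 genes. In bulk RNA, fewer cells expressing a gene and less RNA per cell cannot be told apart. With the replicate number as a block, 3 factors rose and 4 fell, beside 52.4% of all tested genes (24.2% higher and 28.1% lower). Without the libraries numbered 2, 3 also rose and 4 fell, with Nr5a2 (log2 fold change 0.42, adjusted p = 0.00308) and Pou5f1 (-0.13, 0.0477) added. That fit called 4889 of the 11674 tested genes (2266 higher and 2623 lower). Without those numbered 1, none of the 10 was called, beside 206 of all tested genes. Without those numbered 3 only Zfp42 was (0.0382), beside 532 of all tested genes.

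**Figure D2:**
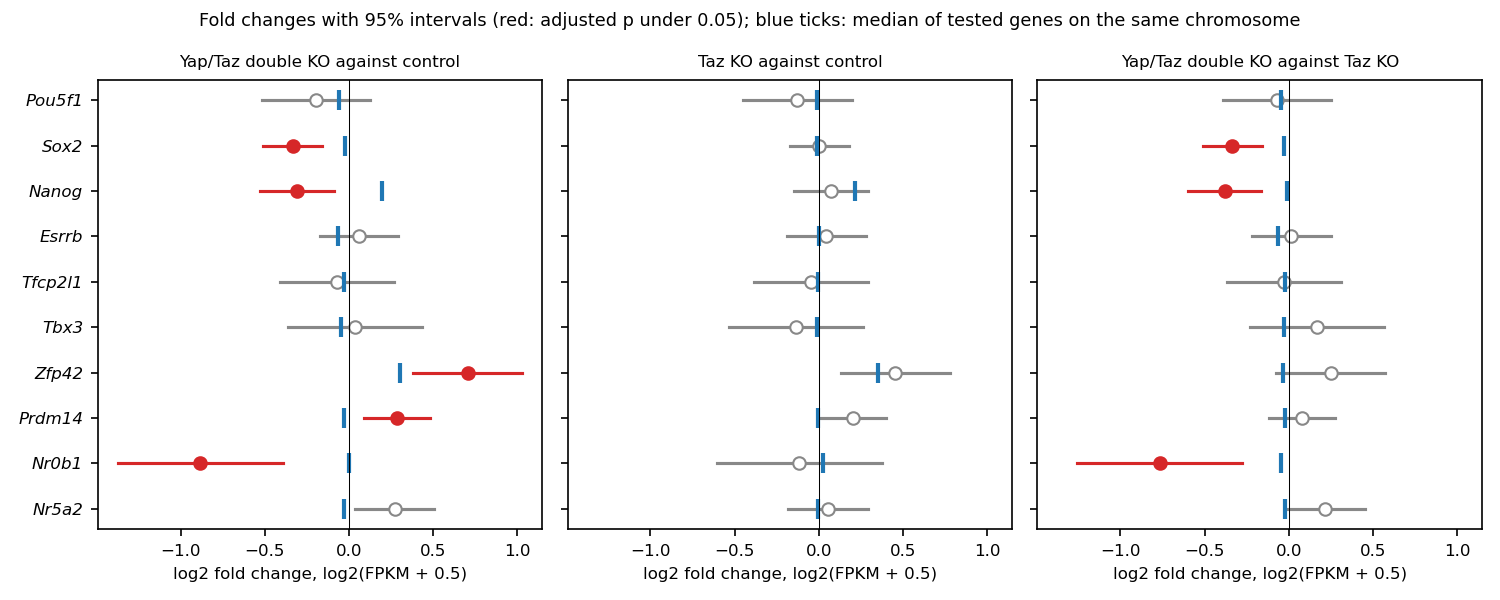
Log2 fold change on the log2(FPKM + 0.5) scale (x axis) of each factor in the 3 comparisons, with 95% intervals; filled red points have an adjusted p under 0.05, and blue ticks give the median of all tested genes on the factor's chromosome. Zfp42 in Taz KO against control (0.45) lies close to the chromosome 8 tick (0.35), while Nanog in double KO (-0.31) lies opposite to the chromosome 6 tick (0.19).

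SOX2 is the HMG-box partner of OCT4. Sox2 (ENSMUSG00000074637; chromosome 3, 34650405 to 34652461 on GRCm38) measured 231, 236 and 209 FPKM in the control libraries, 233, 227 and 217 in those of Taz KO and 185, 182 and 169 in those of double KO. Every double KO library lay below all others, and Taz KO overlapped control. The log2 fold change of double KO against control was -0.33 (SE 0.08, limma adjusted p = 0.0148), to 79.2% of the control mean. The call was lost without control 1 (adjusted p = 0.0657) or double KO 3 (0.0605). Sox2 lies inside the non-coding gene Sox2ot on the same strand, with no shared exon, and Sox2ot averaged 0.0565 FPKM.

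Pou5f1 (ENSMUSG00000024406; chromosome 17, 35506018 to 35510772) encodes OCT4, the POU factor at the centre of the network. It measured 466, 421 and 479 FPKM in the control libraries, 460, 348 and 451 in those of Taz KO and 433, 332 and 432 in those of double KO. Number 2 was the lowest library in every group, and the groups overlapped. The fold of double KO against control was 0.871 (95% interval 0.697 to 1.089, limma adjusted p = 0.33). With the replicate number as a block, the adjusted p was 0.0239. The antisense gene Gm19553 overlaps an exon of Pou5f1 and averaged 1.44 FPKM. Pou5f1 and Nanog are known to have pseudogene copies, so how reads were split between copies is uncertain.

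Nanog (ENSMUSG00000012396; chromosome 6, 122707489 to 122714633), a homeobox factor that lets cells self-renew with less LIF, measured 268, 263 and 261 FPKM in the control libraries, 287, 241 and 309 in those of Taz KO and 224, 205 and 210 in those of double KO. All 3 double KO libraries lay below the other 6. The log2 fold change against control was -0.31 (SE 0.10, limma adjusted p = 0.0463), and it was -0.50 relative to the median of its chromosome (adjusted p = 0.00757). The uncentred call stood close to the threshold, and leaving out 1 library ended it in 7 of 9 cases. These were control 1 (adjusted p = 0.135), control 2 (0.0897), control 3 (0.101), Taz KO 1 (0.0678), double KO 1 (0.0739), double KO 2 (0.102) and double KO 3 (0.117). Its composite OCT4 and SOX2 site is the one printed above.

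The falls of Sox2 and Nanog were close in size to the shift of other highly expressed genes. The 538 tested genes with a control mean of at least 100 FPKM had a median log2 fold change of -0.26 in double KO against control, and 83.5% of them were lower. The 11136 tested genes under that level had a median of -0.01, and 50.8% were lower. With quantile normalization, which sets all libraries to 1 distribution, the log2 fold change was -0.10 for Sox2 (limma adjusted p = 0.568) and -0.04 for Nanog (adjusted p = 0.694). The part of this shift in the falls of Sox2 and Nanog was not tested. Pou5f1, Esrrb and Tfcp2l1, which were also above 100 FPKM in control, had log2 fold changes of -0.20, 0.06 and -0.07.

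Nr0b1 had the largest fall of the 10. It encodes DAX1, an orphan nuclear receptor without the usual DNA-binding domain that binds OCT4 and NR5A2 (ENSMUSG00000025056; chromosome X, 86191764 to 86195947). Its RNA measured 37.1, 38.9 and 47.0 FPKM in the control libraries, 35.0, 34.1 and 44.3 in those of Taz KO and 26.0, 15 and 26.7 in those of double KO. Double KO 2 was the lowest of all, and double KO 1 and 3 also lay below every control and Taz KO library. The log2 fold change against control was -0.88 (SE 0.22, limma adjusted p = 0.0186), to 55.1% of the control mean. The call was lost without control 3 (adjusted p = 0.0663), and with quantile normalization the value was -0.80 (adjusted p = 0.0143).

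Zfp42 had the largest rise. It encodes REX1, a zinc finger protein used as a marker of the naive state (ENSMUSG00000051176; chromosome 8, 43295063 to 43306980). It measured 69.2, 61.1 and 87.1 FPKM in the control libraries, 96.6, 92.0 and 107 in those of Taz KO and 119, 102 and 132 in those of double KO. Control lay below both knockout groups, which overlapped each other. In double KO against control the log2 fold change was 0.70 (SE 0.14, limma adjusted p = 0.00866), or 162% of the control mean, and the call held in all 9 fits without 1 library. Relative to the chromosome 8 median of 0.30 the difference was 0.40, with an adjusted p of 0.0748, so the call was lost. The same chromosome median in Taz KO was 0.35, where Zfp42 had 0.45.

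Prdm14, a PR-domain regulator that represses FGF signalling and DNA methyltransferase genes, rose by less (ENSMUSG00000042414; chromosome 1, 13113457 to 13127163). It measured 14.9, 13.2 and 16.5 FPKM in the control libraries, 17.4, 16.7 and 17.2 in those of Taz KO and 18.9, 17.4 and 18.0 in those of double KO. No library of either knockout group lay below a control library, and double KO lay above Taz KO by a small margin. The log2 fold change of double KO against control was 0.28 (SE 0.09, limma adjusted p = 0.0423). It was lost without control 1 (adjusted p = 0.113), control 2 (0.115), Taz KO 1 (0.0654), Taz KO 3 (0.0636), double KO 1 (0.125), double KO 2 (0.0538) or double KO 3 (0.0952), and with only the 2 groups compared (0.0743).

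Nr5a2 encodes LRH-1, a nuclear receptor that can stand in for OCT4 in reprogramming (ENSMUSG00000026398; chromosome 1, 136842571 to 136960448). It measured 24.6, 26.9 and 26.2 FPKM in the control libraries, 26.4, 26.2 and 28.1 in those of Taz KO and 34.5, 26.6 and 33.7 in those of double KO. Double KO 1 and 3 lay above all other libraries, and double KO 2 lay within the control range. The fold against control was 1.207 (95% interval 1.026 to 1.421, limma adjusted p = 0.0853). The adjusted p was 0.0332 with the replicate block, 0.0156 with quantile normalization and 0.0237 with scaling to library totals.

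Esrrb, Tfcp2l1 and Tbx3 did not pass the test in any of the 3 comparisons. Esrrb, an orphan nuclear receptor known as a main target of GSK3 inhibition (ENSMUSG00000021255; chromosome 12, 86361117 to 86521628), measured 124, 143 and 123 FPKM in the control libraries, 123, 153 and 126 in those of Taz KO and 133, 141 and 131 in those of double KO. Its fold in double KO against control was 1.042 (95% interval 0.886 to 1.225, limma adjusted p = 0.702). Tfcp2l1, a CP2-family factor that acts in the LIF and Wnt responses (ENSMUSG00000026380; chromosome 1, 118627945 to 118685168), measured 130, 171 and 132 FPKM in the control libraries, 126, 168 and 126 in those of Taz KO and 137, 148 and 124 in those of double KO. The groups overlapped for both, and the fold of Tfcp2l1 was 0.950 (95% interval 0.752 to 1.202, adjusted p = 0.746).

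Tbx3, a T-box factor (ENSMUSG00000018604; chromosome 5, 119670669 to 119684724), measured 41.3, 53.0 and 43.1 FPKM in the control libraries, 35.8, 54.9 and 36.3 in those of Taz KO and 45.6, 52.7 and 42.2 in those of double KO. The groups overlapped, and its fold in double KO against control was 1.025 (95% interval 0.777 to 1.351, limma adjusted p = 0.903). An antisense gene, Tbx3os1, overlaps an exon of Tbx3, and the strand setting of the counting is not given in the sources used here.

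Part of the spread within groups followed the replicate number. Esrrb, Tfcp2l1 and Tbx3 were highest in number 2 in all 3 groups, a pattern shown by 19.6% of all tested genes. Pou5f1, Zfp42 and Prdm14 were lowest in number 2 in all 3 groups, a pattern shown by 31.9% of tested genes. Sox2 had neither pattern, and Nanog, Nr0b1 and Nr5a2 were lowest in number 2 in 2 of the 3 groups.

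**Figure D3:**
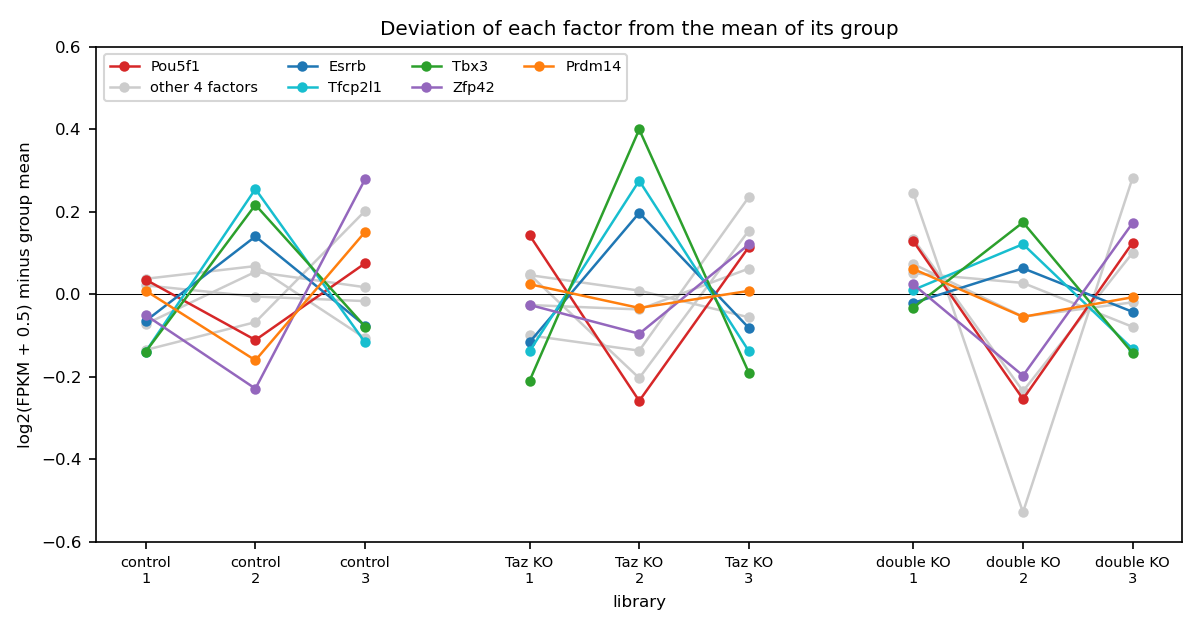
Deviation of each factor from its group mean on the log2(FPKM + 0.5) scale (y axis) in the 9 libraries (x axis), with 6 factors coloured and the other 4 in grey. Esrrb, Tfcp2l1 and Tbx3 peak in number 2 of each group, where Pou5f1, Zfp42 and Prdm14 are lowest.

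Loss of Taz alone, by the labels, left the 10 factors without a call in limma, also by voom on the recovered reads. At an unadjusted p under 0.05, 2 were higher (Zfp42 and Prdm14) and 0 lower, beside 12.8% of all tested genes (8.03% higher and 4.81% lower). At an adjusted p under 0.05, 1.28% of all genes were called (0.72% higher and 0.565% lower). The same 2 factors had groups that did not overlap, beside 18.7% of all tested genes (10.9% higher in Taz KO and 7.84% lower). Zfp42 was at 98.6 ± 7.66 FPKM in Taz KO against 72.5 ± 13.3 in control (log2 fold change 0.45, limma adjusted p = 0.192, and 0.00429 with the replicate block). The block called 11.8% of all genes (7.78% higher and 4.05% lower), and no other factor of the 10. Relative to the chromosome 8 median, Zfp42 differed by 0.10 (adjusted p = 0.99). Prdm14 was at 17.1 ± 0.320 FPKM in Taz KO against 14.8 ± 1.65 in control (0.20, adjusted p = 0.369). Sox2 had the narrowest interval in this comparison, with a fold of 1.001 (95% interval 0.888 to 1.131, adjusted p = 0.996), and Nr0b1 had the widest (0.922, 0.657 to 1.294, adjusted p = 0.941).

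The comparison of double KO with Taz KO addresses the loss of Yap in cells without Taz, and chromosomes 6 and 8 had medians near 0 in it (-0.01 and -0.04). Sox2, Nanog and Nr0b1 fell and none of the 10 rose, beside 13.9% of all tested genes called (6.42% higher and 7.45% lower). The log2 fold changes were -0.34 for Sox2 (SE 0.08, limma adjusted p = 0.0242), -0.38 for Nanog (SE 0.10, 0.0333) and -0.77 for Nr0b1 (SE 0.22, 0.0477). Groups did not overlap for these and, upward, for Prdm14, beside 30.6% of tested genes (14.1% higher and 16.5% lower). With the replicate block 1 factor rose and 3 fell, beside 42.4% of tested genes (16.8% higher and 25.6% lower). The rise was that of Zfp42 (log2 fold change 0.25, limma adjusted p = 0.276, and 0.0132 with the block). Without the libraries numbered 2, 5 factors were called, Tbx3 (0.28, adjusted p = 0.0121) and Nr5a2 (0.32, 0.00918) being added. That fit called 4277 of the 11674 tested genes (1698 higher and 2579 lower). Without those numbered 1 or 3 none of the 10 was called, beside 8 and 32 of all tested genes. This comparison shares its double KO libraries with the one against control, so the falls in the 2 are not independent.

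Each of these 3 calls rested on single libraries. Fitted on the 2 groups alone, none held (adjusted p = 0.057 for Sox2, 0.0911 for Nanog and 0.105 for Nr0b1). Sox2 lost its call without Taz KO 1 (adjusted p = 0.101), Taz KO 3 (0.0599), double KO 1 (0.0583) or double KO 3 (0.0934), and with scaling to library totals (0.0732). Nanog lost it without control 1 (0.0621), control 3 (0.0536), Taz KO 1 (0.125), Taz KO 3 (0.115), double KO 1 (0.0696), double KO 2 (0.0727) or double KO 3 (0.104). For Nr0b1 only the fit without Taz KO 2 kept it, and the highest adjusted p was 0.15, without Taz KO 3. The others left out control 1 (0.0751), control 2 (0.0690), control 3 (0.0630), Taz KO 1 (0.117), double KO 1 (0.0657), double KO 2 (0.0529) or double KO 3 (0.0623). With quantile normalization the log2 fold change was -0.11 for Sox2 (adjusted p = 0.57) and -0.10 for Nanog (0.42), beside a median of -0.25 over the 538 genes of at least 100 FPKM.

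Ratios between factors within a library do not depend on its scaling. Nanog to Pou5f1 was 0.574, 0.624 and 0.544 in control cells, 0.624, 0.692 and 0.685 in Taz KO cells and 0.516, 0.619 and 0.486 in double KO cells. Exact two-sided permutation tests of this ratio against control gave p = 0.2 in Taz KO (adjusted p = 0.5) and p = 0.4 in double KO (0.667), and the knockout groups compared with each other gave p = 0.10 (0.375). The smallest p that 3 against 3 libraries allow is 0.10, and adjustment was over 15 tests of 5 ratios. Sox2 to Pou5f1 was 0.498 ± 0.0623 in control and 0.456 ± 0.0823 in double KO (exact two-sided permutation p = 0.5, adjusted p = 0.75). As the test cannot go under 0.10 and ignores the replicate numbers, it cannot decide whether these 2 factors differ in their response. By replicate number, Sox2 to Pou5f1 was 0.427, 0.548 and 0.391 in double KO, against 0.496, 0.561 and 0.437 in control. Nanog to Sox2 was 1.17 ± 0.0676 in control cells, 1.24 ± 0.181 in Taz KO cells and 1.19 ± 0.0576 in double KO cells, with exact two-sided permutation p-values of 0.7 to 0.8 (adjusted p = 0.8). The ratio with the widest separation, chosen after its values were seen, was Nr0b1 to Zfp42. It was 0.536, 0.636 and 0.540 in control cells, 0.362, 0.370 and 0.414 in Taz KO cells and 0.219, 0.147 and 0.202 in double KO cells, and no 2 groups overlapped. This ratio sets the largest fall against the largest rise and is given as a description. Its tests are among the 15 of the adjustment but are not reported, because the ratio was chosen from its values. Zfp42 lies on chromosome 8, whose median was 0.35 in Taz KO and 0.30 in double KO against control.

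The pattern over the 9 libraries was compared between each factor and all tested genes by Pearson's correlation of log2(FPKM + 0.5), as a description. Between factors, the correlation ranged from -0.853 (Pou5f1 with Esrrb) to 0.943 (Zfp42 with Prdm14), and it was 0.887 to 0.892 among Esrrb, Tfcp2l1 and Tbx3. Out of the 11674 tested genes, no factor had another of the 10 among its 2 most similar. The most similar were Ccdc86 (0.996) and Bax (0.993) to Pou5f1, Ap2a2 (0.984) and Rpap1 (0.982) to Sox2, and Tagln3 (0.973) and Rtn2 (0.972) to Nanog. They were Ddx17 (0.969) and Vps13b (0.968) to Esrrb, March6 (0.956) and Atat1 (0.953) to Tfcp2l1, and 2010001M06Rik (0.980) and Cltc (0.976) to Tbx3. Vegfc (0.992), also on chromosome 8, and Zmym5 (0.988), on chromosome 14, were most similar to Zfp42. Tex9 (0.977) and Eef1a1 (0.970) were most similar to Prdm14, Yae1d1 (0.991) and Sfrp1 (0.986) to Nr0b1, and Patl1 (0.982) and Zbtb43 (0.981) to Nr5a2. All these values share the 9 libraries, their scaling and the replicate numbers.

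Other transcription factors and DNA modifiers of the network also moved both ways in double KO. Of 18 such genes tested against control, 2 rose and 4 fell (median log2 fold change -0.09). These counts stand beside 12.4% of all tested genes called higher and 12.9% called lower. With the replicate block 4 rose and 6 fell, beside 24.2% and 28.1%. Klf2, a Kruppel-like factor on chromosome 8, rose from 198 ± 12.3 to 361 ± 21.0 FPKM (limma adjusted p = 0.000539), and Tfap2c, an AP-2 factor, from 24.2 ± 0.855 to 42.0 ± 4.12 (0.000578). Klf4 fell from 202 ± 27.9 to 123 ± 26.8 FPKM (adjusted p = 0.0146), Zfp143, a regulator of Nanog, from 12.5 ± 0.617 to 9.91 ± 0.785 (0.0177), and Mybl2, a cell cycle factor, from 192 ± 3.28 to 158 ± 6.24 (0.0179). Against Taz KO, 2 rose and 2 fell, beside 6.42% of all tested genes called higher and 7.45% lower. With the block 3 rose and 5 fell, beside 16.8% and 25.6%. In Taz KO against control limma called 0, also with voom. An unadjusted p under 0.05 was reached by 1, upward, beside 8.03% of all tested genes.

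Known targets of OCT4, SOX2, NANOG or ESRRB and other markers of pluripotent cells included more falls than rises in double KO. Of 23 tested against control, 9 fell and 3 rose, beside 12.9% of all tested genes called lower and 12.4% called higher. Under the replicate block 13 fell and 5 rose, beside 28.1% and 24.2%. Of the 23, 9 had a control mean of at least 100 FPKM, the level at which the median of all genes was -0.26, and 5 of the 9 falls were among them. The median log2 fold change of the 23 was -0.48, where that of all tested genes was -0.02. Dppa5a, an RNA-binding marker protein gene, went from 3261 ± 157 to 1139 ± 115 FPKM (limma adjusted p = 5.2e-05). Fgf4, whose enhancer is a known OCT4 and SOX2 target, went from 104 ± 4.36 to 60.0 ± 6.54 FPKM (0.00133), and Spp1, the osteopontin gene, from 418 ± 34.9 to 183 ± 55.0 (0.00261). The 3 rises were those of Dppa3 (log2 fold change 1.12, adjusted p = 0.0306), the STELLA gene beside Nanog on chromosome 6, Dppa2 (0.53, 0.0419) and Pecam1 (0.41, 0.0482). Against Taz KO, 4 fell and 0 rose, beside 7.45% of all tested genes called lower and 6.42% higher. With the block 13 fell and 6 rose, beside 25.6% and 16.8%. In Taz KO against control limma called 0, also with voom. At an unadjusted p under 0.05, 3 were lower, beside 4.81% of all tested genes. The block called 3 higher and 3 lower, beside 7.78% and 4.05%.

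Genes known to rise on exit from the naive state lay on both sides of control in double KO. Of 11 listed, 8 were tested, and against control 3 fell and 0 rose (median -0.41). These counts stand beside 12.9% of all tested genes called lower and 12.4% called higher. With the replicate block 1 rose and 3 fell, beside 24.2% and 28.1%. Foxd3, a forkhead factor, fell from 7.83 ± 1.01 to 1.83 ± 0.321 FPKM (limma adjusted p = 0.000539), Pou3f1, the OCT6 gene, from 1.33 ± 0.193 to 0.484 ± 0.171 (0.00655), and the DNA methyltransferase gene Dnmt3b from 21.1 ± 1.88 to 13.7 ± 1.74 (0.0103). Zic2, a zinc finger factor gene, had 15.3 ± 4.23 FPKM in control and 25.0 ± 5.35 in double KO (log2 fold change 0.71, adjusted p = 0.107, and 0.000195 with the block). Dnmt3a had 3.19 ± 0.192 and 3.89 ± 0.474 FPKM (0.25, adjusted p = 0.099). The double KO libraries lay above control for both, and also for Fgf5, which was too low to be tested (0.0361 to 0.0671 FPKM in control and 0.167 to 0.652 in double KO). They lay below control for Sox3, also too low to be tested (0.306 to 0.475 FPKM in control and 0.173 to 0.245 in double KO). Of the 8 tested, 2 lay higher without overlap and 3 lower, beside 21.7% and 23.8% of all tested genes. Zic2, Dnmt3a, Fgf5 and Sox3 were named after their values were seen. Against Taz KO 2 fell and 0 rose, beside 7.45% of all tested genes called lower and 6.42% higher. With the block 4 fell and 2 rose, beside 25.6% and 16.8%. In Taz KO against control limma called 0, also with voom. An unadjusted p under 0.05 was reached by 1, downward, beside 4.81% of all tested genes. The block called 1 higher, beside 7.78%.

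The pathways set by the medium were read from 18 receptor, kinase and target genes, of which 3 also stood in another list. Against control 4 rose and 3 fell in double KO, with a median log2 fold change of 0.12. These counts stand beside 12.4% of all tested genes called higher and 12.9% called lower. With the replicate block 7 rose and 4 fell, beside 24.2% and 28.1%. On the LIF side, the receptor gene Lifr fell from 8.58 ± 0.296 to 5.28 ± 0.476 FPKM (limma adjusted p = 0.000919) and the STAT3 target Socs3 from 63.4 ± 9.02 to 41.7 ± 10.1 (0.0355). On the Wnt side, Ctnnb1, the beta-catenin gene, rose from 149 ± 3.99 to 181 ± 2.06 FPKM (0.0122) and the feedback gene Axin2 from 16.3 ± 0.599 to 26.2 ± 5.78 (0.0158). Jak1 rose (0.25 on the log2 scale, 0.0223). In the MEK and ERK arm Map2k1, which encodes MEK1, fell (-0.26, 0.0379). The fourth rise was that of the ERK target Dusp4, a phosphatase gene on chromosome 8 (1.07, 0.0344), named after its value was seen. The other ERK targets of the list were not called without the block and lay on both sides. Spry4 (0.91), Spry2 (0.35) and Etv4 (0.18) were higher, and Egr1 (-0.81), Dusp6 (-0.42) and Etv5 (-0.07) were lower. Against Taz KO 3 rose and 1 fell, beside 6.42% of all tested genes called higher and 7.45% lower. With the block 4 rose and 4 fell, beside 16.8% and 25.6%. In Taz KO against control limma called 0, also with voom. An unadjusted p under 0.05 was reached by 1, upward, beside 8.03% of all tested genes.

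**Figure D4:**
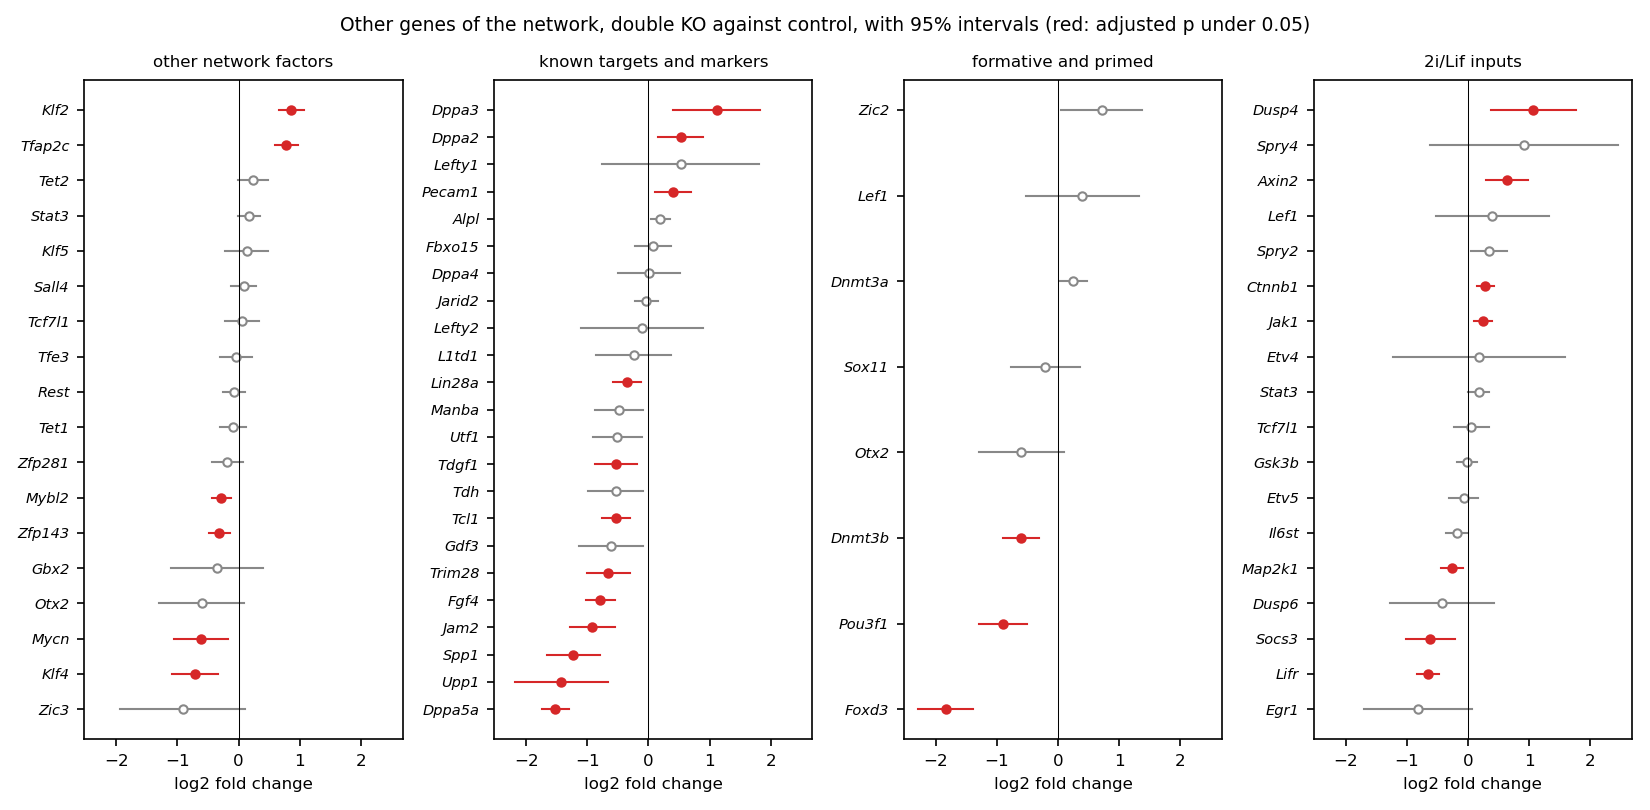
Log2 fold change of double KO against control (x axis, log2(FPKM + 0.5) scale) with 95% intervals for the tested genes of 4 lists, ordered by value; red points have an adjusted p under 0.05. Foxd3 (-1.84) and Dppa5a (-1.52) are the lowest of the called genes and Dppa3 (1.12) is the highest.

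Markers of other cell types were low beside these levels, except for some of trophectoderm. The summed level of 8 primitive endoderm markers was 2.32 to 3.31 FPKM in control cells, 1.71 to 3.40 in Taz KO cells and 2.05 to 3.80 in double KO cells. The sum of 10 fibroblast markers was 3.00 to 4.65, 2.34 to 6.27 and 3.86 to 11.4 FPKM, of which Thy1 gave 2.72 ± 0.846, 2.98 ± 1.59 and 5.87 ± 3.51, and Prrx1, Postn, Lum and Dcn were listed at 0 in every library. Of 9 markers of the 2-cell-like state, 8 were in the table, with sums of 0.167 to 0.296 FPKM over all libraries. Of 9 trophectoderm markers 5 were tested, and 2 rose in double KO against control, beside 12.4% of all tested genes called higher. These were Tfap2c (from 24.2 ± 0.855 to 42.0 ± 4.12 FPKM), also counted above as a network factor, and Krt8 (from 25.0 ± 1.81 to 50.9 ± 11.9 FPKM, limma adjusted p = 0.00348). The sum of the 9 was 79.8 to 88.4 FPKM in control cells, 92.4 to 105 in Taz KO cells and 123 to 153 in double KO cells. Its rise in double KO lay mostly in these 2 genes. Cdx2, a defining marker, was at 0.206 ± 0.0668 and 0.378 ± 0.320 FPKM in control and double KO. Elf5 was also higher there (0.00256 and 0.0133). Gata3 (0.0770 and 0.00734) and Hand1 (0.0587 and 0.0447) were lower, and all 4 were too low to be tested. The part of these markers in the values of the 10 factors was not tested.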

How the data were processed

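The authors deposited 1 table of FPKM for 9 libraries. TopHat2 2.1.1, HTSeq 0.6.1, DESeq2 and mm10 are listed, with no roles, in the submitters' processing notes. How strand and multiple alignments were handled is not given. FPKM steps returned whole reads for 24621 of 24621 genes above 0 (tolerance 0.001), on median-of-ratios size factors. If all of a gene's counts share a divisor, its reads are understated.

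Testing used limma 3.58.1 (R 4.3.3) on log2(FPKM + 0.5), which understates changes of low genes, for 11674 genes averaging 1 FPKM or more. Group means over all 9 libraries were fitted with a variance trend (6 residual degrees of freedom, two-sided, Benjamini-Hochberg). The script was tested on simulated data. Labels do not call replicates separate cultures, so p-values cover the spread between libraries only. No replicates agreed within sampling noise.

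Same-number libraries deviated together (r = 0.192 to 0.711 in 9 pairs, against -0.688 to 0.394 in 18 others). The replicate block therefore took numbers as pairs, from the values and not the labels. The main fit, which gave the calls, had no block and ignored this pairing. GENCODE M21 (GRCm38) placed 35640 genes. Named were all 10 factors, up to 3 called genes per direction, list and comparison, and the 2 genes most like each factor. Factors and lists were chosen with earlier results of these data known. Alternatives covered pseudocount, filter, scaling, voom, block, 2-group fits, chromosome centring and left-out libraries.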

Additional observations from a re-analysis of the deposited data

How the results depend on the processing

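Counts of called factors (5 in double KO against control, 0 in Taz KO against control and 3 in double KO against Taz KO) stayed within 1.5 times under other pseudocounts, a minimum of 5 FPKM, scaling and voom, except as given here. Without a filter, 3 factors were called in double KO against control (Nanog, adjusted p = 0.0988, and Prdm14, 0.061, were lost) and 1 against Taz KO (Nanog, 0.075, and Nr0b1, 0.0968, were lost). With only the 2 groups fitted, 0 were called against Taz KO. There, chromosome centring ended the call of Nr0b1 (-0.72, adjusted p = 0.0593), and quantile normalization added Zfp42 (0.45, 0.0221) and Nr5a2 (0.32, 0.0371). The replicate block called 1 in Taz KO against control, and changed no call of the 10 beyond those of Pou5f1 and Nr5a2 in double KO against control and of Zfp42 in the other 2 comparisons.

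Over all genes, 2948, 150 and 1620 were called in the 3 comparisons in the same order. The block gave 6112, 1381 and 4947. Fits of only 2 groups gave 88 in Taz KO against control and 635 in double KO against Taz KO, and chromosome centring gave 49 in Taz KO against control (13 higher and 36 lower).

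Leaving out 1 library gave 2 to 5, 0, and 0 to 3 called factors, and 1505 to 3568, 11 to 230, and 482 to 2648 called genes. Leaving out 1 replicate number from every group was chosen after seeing the data. Without number 1, 0, 0 and 0 factors and 206, 0 and 8 genes were called. Without number 2 it was 7, 0 and 5 factors and 4889, 423 and 4277 genes. Without number 3 it was 1, 0 and 0 factors and 532, 0 and 32 genes. These fits have fewer samples.

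The share of calls that were higher in double KO against Taz KO was 46.3%, and 58.4% when scaled to library totals. Depth limits Nr0b1 and Prdm14 most.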
